A study of Mus musculus with 12 samples.

Results

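Ugdh, Ugp2, Uxs1, Has1, Has2 and Has3 encode the enzymes that make UDP-glucuronate, take it onward, and polymerise it into hyaluronan. The 6 genes were taken by symbol from deposited tables that list 22114 genes for the Nrf2 allele and 21916 for the Keap1 allele, with 20844 in both. They were selected on the measured fall of Ugdh, listed among NRF2 targets, between the libraries labelled Nrf2 knockout and the Nrf2 D29H libraries, so every value of the 6 genes in that contrast is a description and carries no p. The rule did not use the R554Q contrast, in which the genes were tested, although the genes and tests were chosen with earlier results of these data known.

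RNA was sequenced from mouse embryonic fibroblasts (MEFs), cultured connective tissue cells of embryonic day 13.5 to 14.5, in 4 groups of 3 libraries. LSL-Nrf2D29H cells, homozygous for the inducible allele, received adenovirus carrying Cre, which turns on the D29H protein (the Nrf2 D29H group), or empty adenovirus, which leaves the allele silenced (the group labelled Nrf2 knockout). CA-Keap1R554Q cells, homozygous likewise, received Cre virus (the Keap1 R554Q group) or empty virus (the Keap1 wild type group, whose allele is functionally wild type). All cells were grown in pyruvate-free medium with 10% serum, infected at a multiplicity of 500 and harvested 4 days later. Cells of a fully wild-type genotype given Cre virus were not among the groups, and Cre and the mutant allele cannot be told apart. The labels do not say whether the 3 libraries of a group came from separate embryos or cultures, so p-values measure the spread between these libraries, which may be technical.

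Counted reads ran from 14963004 in labelled-knockout replicate 3 to 23818477 in labelled-knockout replicate 2. Levels are given as CPM, read counts scaled to a common library size with TMM factors over all 12 libraries. Nfe2l2, the gene of NRF2, had 42.6 ± 3.42 CPM in the group labelled knockout and 53.0 ± 3.80 CPM in D29H (SD, n = 3 each). Libraries labelled knockout thus held Nfe2l2 reads, although reads summed over a gene say nothing of which allele state made them. Nqo1, an NRF2 target used as a reference, was at 8.82 ± 1.73 CPM in the labelled knockout, 119 ± 13.1 in D29H, 33.1 ± 0.246 in wild type and 351 ± 39.7 in R554Q (SD, n = 3 each). All 9 fibroblast markers examined were present, and their summed level was 14610 to 20740 CPM against 63.9 to 159 CPM for 7 macrophage markers.

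Hyaluronan is a long unbranched sugar chain of the matrix around fibroblasts, built from alternating glucuronate and N-acetylglucosamine. UGP2 makes UDP-glucose, UGDH oxidises it to UDP-glucuronate, and the hyaluronan synthases HAS1, HAS2 and HAS3 at the plasma membrane join UDP-glucuronate and UDP-N-acetylglucosamine while extruding the chain. UDP-glucuronate also feeds sulfated chains of proteoglycans and the glucuronidation of drugs and hormones, and UXS1 converts it to UDP-xylose, the first sugar of the linker that attaches those chains to a core protein. NRF2 binds antioxidant response elements, short promoter motifs.

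The start of Ugdh is shown because it holds the core letters of that element, TGACNNNGC. RefSeq promoter windows (GRCm38.p6, 250 bases before to 50 after each start) were searched for these letters on both strands, with no other motif searched. The core was in 4071 of 32851 windows (12.4%). Of the 6 genes, 4 had a window (Ugdh, Ugp2, Uxs1 and Has1) and only that of Ugdh held the core, at 2 sites. The first line is the stretch upstream of the outermost annotated Ugdh start, chr5:65435950-65436092 on the minus strand, in which the core (capitals) lies 16 bases before that start and 123 bases before the RefSeq start. The second site is on the opposite strand of the gene (capitals show the core reverse-complemented), 85 bases before the RefSeq start, and thus lies after the outermost start, within the deposited span of the gene. The remaining lines are the sites of 3 reference NRF2 targets, the ones of 5 with a window that held the core. Their capitals also show the core reverse-complemented, and the Srxn1 site lies after its RefSeq start. A match is a description of letters, and no binding was measured here.
Ugdh, first site: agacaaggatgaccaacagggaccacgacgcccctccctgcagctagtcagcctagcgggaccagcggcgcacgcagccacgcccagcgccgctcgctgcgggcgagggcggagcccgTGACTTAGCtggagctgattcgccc
Ugdh, second site: tcctcaagggGCGTGGTCAtacagttcgg
Gclm: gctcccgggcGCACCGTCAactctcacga
Txnrd1: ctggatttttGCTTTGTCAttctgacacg
Srxn1: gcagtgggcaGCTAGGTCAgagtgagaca

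Per kilobase of deposited gene length, the precursor enzymes and Has2 were the abundant transcripts, and Has1 and Has3 were near the lower limit of detection. Group means of the level ran from 26.6 to 36.0 CPM per kilobase for Ugdh, 23.5 to 28.5 for Ugp2, 13.4 to 16.6 for Uxs1 and 7.16 to 11.7 for Has2. Has1 ran from 0.512 to 0.650 and Has3 from 0.134 to 0.285 CPM per kilobase. Has2 made up 86.8% to 95.3% of the summed per-kilobase level of the 3 synthases, depending on the library. This sum was 12.3 ± 0.519 in the labelled knockout, 11.5 ± 0.444 in wild type, 11.01 ± 0.923 in D29H and 7.91 ± 0.667 in R554Q (SD, n = 3 each).

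**Figure D1:**
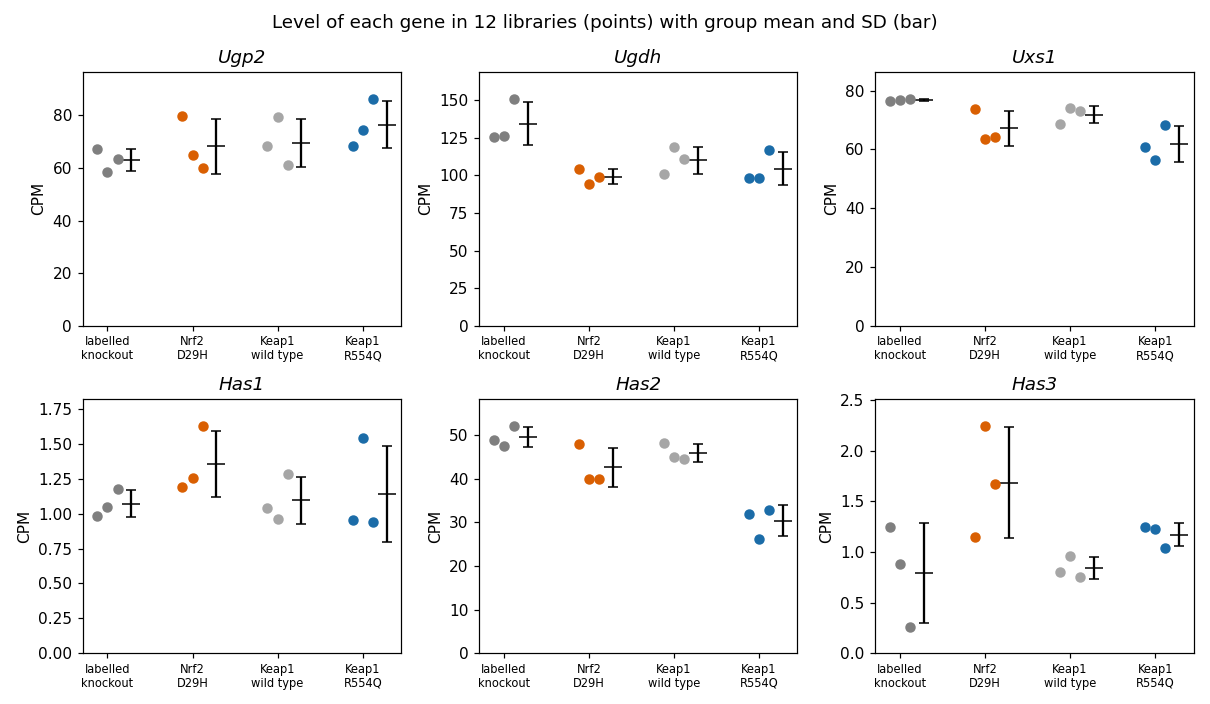
Level of each of the 6 genes in the 12 libraries, in CPM on axes that start at 0. Points are libraries in replicate order, and the bar beside them is the group mean with its SD. The 3 labelled-knockout libraries hold the highest Ugdh levels (125 to 151 CPM), and the 3 R554Q libraries hold the lowest Has2 levels (26.3 to 32.9 CPM).

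Ugp2, UDP-glucose pyrophosphorylase (ENSMUSG00000001891; mm10 chromosome 11, 21321138 to 21371201, minus strand), is the entry to the pathway. Its level was 68.5, 74.5 and 86.1 CPM in R554Q and 68.4, 79.3 and 61.1 CPM in wild type. In D29H it was 79.8, 64.9 and 59.9 CPM, and in the labelled knockout 67.0, 58.5 and 63.4 CPM. The group means were ordered R554Q, wild type, D29H, labelled knockout, and all neighbours in that order overlapped. Gm12043, a transcript on the opposite strand that overlaps Ugp2, had 7 to 34 reads per library, at most 2.44% of the Ugp2 reads.

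Ugdh, UDP-glucose dehydrogenase (ENSMUSG00000029201; chromosome 5, 65413202 to 65435946, minus strand), oxidises UDP-glucose to UDP-glucuronate. It had 103.9, 94.3 and 98.8 CPM in the 3 D29H libraries and 125, 126 and 151 CPM in the libraries labelled knockout. The Keap1 cells had 98.2, 97.9 and 117 CPM in R554Q and 101, 119 and 111 CPM in wild type, all below the labelled-knockout libraries, with 3 of the 6 inside the D29H range. The highest Ugdh level was that of labelled-knockout replicate 3, the library with the fewest reads. In order of group means the labelled knockout came first (134 ± 14.3 CPM), then wild type (110 ± 8.84), R554Q (104 ± 10.96) and D29H (99.0 ± 4.81; SD, n = 3 each). The labelled-knockout libraries did not overlap those of wild type, while wild type, R554Q and D29H overlapped from neighbour to neighbour.

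Uxs1, UDP-glucuronate decarboxylase (ENSMUSG00000057363; chromosome 1, 43746966 to 43827800, minus strand), draws UDP-glucuronate away to UDP-xylose. Its level was 76.4, 76.9 and 77.1 CPM in the labelled-knockout libraries and 68.6, 74.0 and 72.9 CPM in the wild-type libraries. D29H had 73.9, 63.4 and 64.2 CPM, and R554Q had 60.9, 56.4 and 68.5 CPM. The labelled knockout was above wild type in every library, and the other neighbours overlapped in the order wild type, D29H, R554Q. Against their own controls, each D29H library lay below each labelled-knockout library. Each R554Q library lay below each wild-type library, though narrowly (68.5 against 68.6 CPM at the nearest).

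Has2 (ENSMUSG00000022367; chromosome 15, 56665627 to 56694539, minus strand), the synthase that embryos require for heart development, had 31.9, 26.3 and 32.9 CPM in R554Q against 48.3, 45.0 and 44.7 CPM in wild type. D29H had 47.9, 40.0 and 40.1 CPM and the labelled knockout 49.0, 47.5 and 52.1 CPM. Each R554Q library was below each of the other 9, while the labelled knockout (49.6 ± 2.31 CPM), wild type (46.0 ± 2.00) and D29H (42.7 ± 4.54; SD, n = 3 each) overlapped from neighbour to neighbour. The antisense transcript Has2os, which overlaps Has2, had 3 to 16 reads per library, at most 2.51% of the Has2 reads.

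Has1 (ENSMUSG00000003665; chromosome 17, 17843328 to 17855188, minus strand) had 18 to 36 reads per library and 0.939 to 1.63 CPM, and all neighbouring groups overlapped. Has3 (ENSMUSG00000031910; chromosome 8, 106870242 to 106884566, plus strand) had 25, 50 and 37 reads in D29H, 29, 21 and 4 in the labelled knockout, 25, 27 and 21 in R554Q and 17, 19 and 14 in wild type. Its level in CPM was higher in each R554Q library (1.04 to 1.25) than in each wild-type library (0.750 to 0.962), and the D29H and labelled-knockout libraries overlapped. Has3 overlaps Chtf8 on the opposite strand, which had 1597 to 2451 reads per library. Whether counting used strand is not given in the sources used here, so Has3 values are uncertain.

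The first comparison asked which of the genes changed when Keap1 R554Q, a mutant of the adaptor that marks NRF2 for degradation, was turned on. Has2 fell by 33.8% (95% interval -42.4% to -23.9%), and the other 5 genes did not pass the test. In edgeR's quasi-likelihood test with Benjamini-Hochberg adjustment over 14128 genes, the Has2 log2 fold change was -0.59 (SE 0.10, adjusted p 0.00105), lower in 3 of 3 R554Q libraries than in any wild-type library. The call was past the threshold of 0.05 in each of the 13 alternatives run, with log2 fold changes of -0.65 to -0.46 and adjusted p of 1.9e-07 to 0.0116. The authors' deposited table gives -0.52 with an adjusted p of 6.3e-06. Of all genes tested 2.4% were called lower, 3.77% higher and 6.17% in either direction, and of the 6 genes, all of which passed the filter on low counts, 1 was called lower and none higher. Their median log2 fold change was 0.0046 against -0.00099 over all genes tested.

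Markers of other cells moved alongside Has2 in this comparison. The summed level of the 7 macrophage markers found in both tables, of 8 listed, was 63.9 to 76.9 CPM in R554Q and 90.0 to 102 CPM in wild type, with none of the 7 at 0. Of 6 skeletal muscle markers 3 were in both tables, and they summed to 9.20 to 10.5 CPM in R554Q and 12.05 to 14.6 CPM in wild type. That sum was almost wholly Des, with Myog and Actn2 under 1 CPM in every library, and Des is also among the closest profiles to Has2 given last. In bulk RNA, fewer cells of a type and less RNA per cell cannot be told apart. The part of these markers in the Has2 result was not tested. The macrophage sum was 115 to 155 CPM in the labelled knockout and 144 to 159 CPM in D29H. Those groups differ from wild type in allele and culture as well, so their sums are given as levels only.

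Ugdh did not pass the test in R554Q cells. The log2 fold change stood at -0.07 with an SE of 0.09 (edgeR adjusted p 0.678), and the 95% interval of -16.5% to 8.72% bounds the change these libraries allow. Over the 13 alternatives it ran from -0.15 to 0.018, with adjusted p of 0.185 to 0.9751. The same libraries held a Nqo1 log2 difference of 3.41 (SE 0.10, edgeR adjusted p 1.1e-13).

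Ugp2 differed by 0.14 on the log2 scale (SE 0.10, adjusted p 0.431), with overlapping groups, in R554Q against wild type. It was at 0.050 without R554Q replicate 3, 0.053 without wild-type replicate 3, 0.21 without R554Q replicate 1 and 0.25 without wild-type replicate 2, with adjusted p of 0.282 or higher in edgeR. With GC and length offsets (a trend of the counts on GC content and on gene length, removed per library), an alternative chosen after seeing the data, it was 0.33 with an adjusted p of 0.0119 in edgeR. Uxs1 was at -0.21 (SE 0.09, adjusted p 0.147), with the highest R554Q library just below the lowest wild-type library, and at -0.28 (adjusted p 0.0139 in edgeR) without R554Q replicate 3. Has1 was at 0.08 (SE 0.32, adjusted p 0.913) and Has3 at 0.48 (SE 0.31, adjusted p 0.358), each with wide errors at these read numbers.

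**Figure D2:**
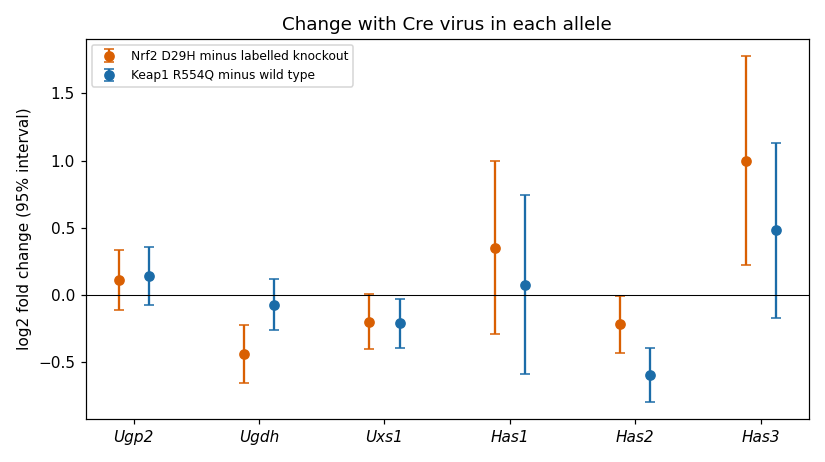
Log2 fold change of the 6 genes with Cre virus against empty virus, with 95% intervals, in the Nrf2 allele (orange) and the Keap1 allele (blue). The Has2 point of R554Q is at -0.59 and the Ugdh point of D29H at -0.44, with the latter chosen for its value; Has1 and Has3 have the widest intervals.

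The Nrf2 D29H contrast, which chose the genes, compared cells expressing D29H with the group labelled knockout. The Ugdh log2 fold change was -0.44 (SE 0.10), a difference of -26.2% with a 95% interval of -0.65 to -0.22 on the log2 scale, and the groups did not overlap. It ran from -0.49 to -0.34 over the 13 alternatives, the smallest size being -0.34 without labelled-knockout replicate 3. The authors' deposited table gives -0.41. Of all genes tested 4.75% were called, 1.28% lower and 3.47% higher. Since the rule used this contrast, no count of the 6 genes is read against those shares.

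Other measures also separated the D29H and labelled-knockout libraries. The 9 fibroblast markers summed to 16890 to 17630 CPM in D29H and 19170 to 20740 CPM in the labelled knockout. The 6 cartilage markers, of which Matn1 was at or near 0 in every library, summed to 62.4 to 70.4 CPM and 72.3 to 82.0 CPM. Mitochondrial genes took 0.982% to 1.77% of the reads in D29H and 0.725% to 0.904% in the labelled knockout. The part of these differences in the Ugdh value and in the other D29H values was not tested.

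The other precursor enzymes had small differences in D29H. Ugp2 was at 0.11 (SE 0.11) with overlapping groups. It was at -0.014 without D29H replicate 1, 0.058 without labelled-knockout replicate 2 and 0.21 without D29H replicate 3. Uxs1 was at -0.20 (SE 0.10), each D29H library lying below each labelled-knockout library. Among the synthases, Has2 was at -0.22 (SE 0.10; 95% interval -0.43 to -0.0050) with overlapping groups, and the authors' deposited table gives -0.20. Has1 was at 0.35 (SE 0.31), or 0.21 without D29H replicate 3, and Has3 at 1.00 (SE 0.38), the latter resting on 4 to 50 reads per library and overlapping groups. The median of the 6 log2 fold changes was -0.042, with the Ugdh value that chose the genes among them. It is therefore not read against the median of 0.00043 over all 14370 genes tested.

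A difference between the alleles in the response to Cre virus was tested in 1 fit of all 12 libraries, with the R554Q effect subtracted from the D29H effect. For Has2 the difference was 0.39 (SE 0.14; 95% interval 0.10 to 0.67) with an adjusted p of 0.329 in edgeR, and of 0.249 to 0.642 over the alternatives. The larger Has2 difference in R554Q than in D29H therefore did not pass the test. For Ugdh the difference was -0.36 (SE 0.14; 95% interval -0.64 to -0.076), given without a p because its D29H effect entered the choice. That interval takes no account of the choice either and is no test. The other 4 genes had differences of -0.02 (Ugp2), 0.02 (Uxs1), 0.28 (Has1) and 0.52 (Has3), with adjusted p of 0.74 or higher in edgeR. With 1 library left out the Has1 difference ran from 0.12 to 0.55 and that of Has3 from 0.18 to 0.96. Without Ugdh, 0 of 5 genes were called by edgeR or DESeq2, and 1 had an unadjusted p under 0.05. Of all 14794 genes 0.027% were called in this test, 0.00676% with a higher and 0.0203% with a lower effect in D29H.

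**Figure D3:**
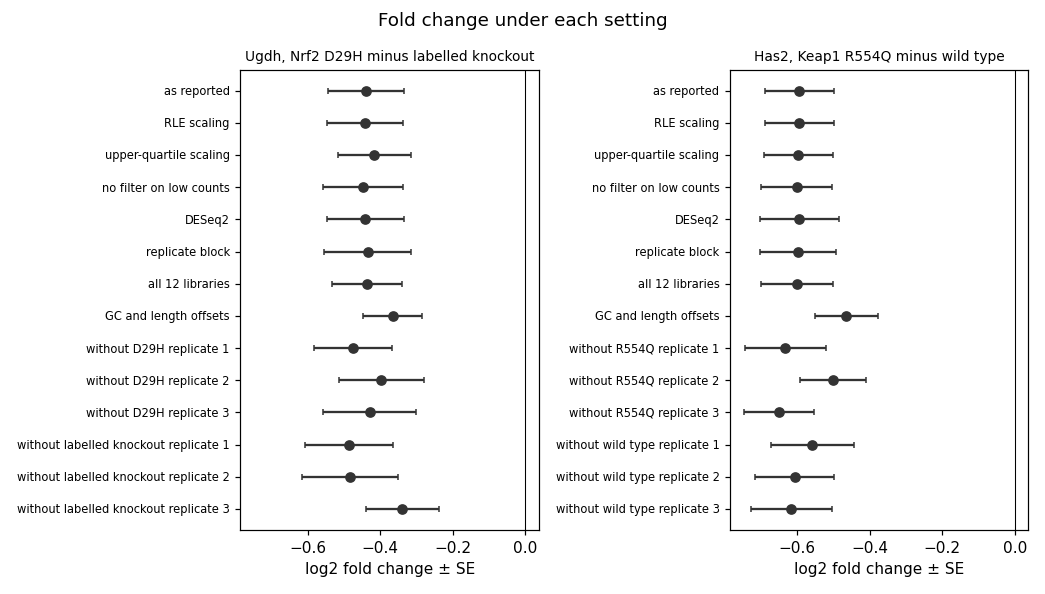
Log2 fold change with its SE of Ugdh in D29H against the labelled knockout (left) and of Has2 in R554Q against wild type (right), as reported and under each of 13 alternatives. Every point is below 0, with Ugdh from -0.49 to -0.34 and Has2 from -0.65 to -0.46. The genes were chosen for the Ugdh fall, so the Ugdh points are a description and no test.

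The groups with empty virus were compared to show where the starting levels lay. They differ in allele and in culture, which cannot be told apart, and 19.7% of all genes tested were called, 9.58% higher and 10.1% lower in the labelled knockout. Ugdh was 0.28 (SE 0.10) higher on the log2 scale in the labelled knockout than in wild type, a value given without a p, and ran from 0.20 to 0.36 over the 18 alternatives. Marker sums also separated these groups: in labelled knockout and wild type they were 19170 to 20740 and 14790 to 17110 CPM for fibroblast, 72.3 to 82.0 and 44.7 to 56.7 for cartilage, 3.27 to 4.32 and 6.03 to 7.96 for epithelial, and 188 to 217 and 221 to 242 for neural markers, beside the macrophage sums given above. Their part in the Ugdh difference was not tested. The D29H mean of Ugdh (99.0 CPM) was thus below the wild-type mean (110 CPM), with overlapping libraries. Has2 was at 0.11 (SE 0.10, adjusted p 0.492 in edgeR), and Ugp2, Uxs1, Has1 and Has3 were at -0.14, 0.10, -0.04 and 0.0017, with adjusted p of 0.415 or higher. Of these 5 genes 0 were called by edgeR or DESeq2, and 0 had an unadjusted p under 0.05. With 1 library left out the Ugp2 value ran from -0.21 to -0.022.

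Genes around the 6 were described from 7 lists written from knowledge of the pathway, holding 110 genes of which 101 were in the tables. In R554Q, 7 rose and 2 fell of 87 tested (10.3% called, against 6.17% of all genes), and their median was 0.027. In D29H, 2 rose and 1 fell of 87 tested (3.45%, against 4.75%), and the median was -0.088. The counts moved with single libraries. In R554Q the 9 calls became 5 without R554Q replicate 1 or wild-type replicate 2 and 23 without R554Q replicate 3. In D29H the 3 calls became 13 without D29H replicate 1, 5 without labelled-knockout replicate 1, and 0 without D29H replicate 2, D29H replicate 3 or labelled-knockout replicate 2.

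Hyaluronan breakdown had 8 genes tested in R554Q, of which 1 rose and none fell, and 7 in D29H, with the same counts. The gene was Cemip in both, a hyaluronan-binding protein needed for hyaluronan depolymerisation by skin fibroblasts. Its level was 73.0, 70.7 and 79.9 CPM in R554Q and 51.9, 50.8 and 52.6 CPM in wild type. D29H had 51.1, 56.2 and 58.6 CPM and the labelled knockout 40.0, 43.4 and 41.0 CPM. The mutant libraries were above their controls with no overlap in either allele. In R554Q the Cemip log2 difference was 0.53 (SE 0.08, edgeR adjusted p 0.000624), past the threshold in all 13 alternatives, and 0.41 (SE 0.10, adjusted p 0.019) in D29H. The D29H call was lost without D29H replicate 2 (0.41, adjusted p 0.0922), D29H replicate 3 (0.38, adjusted p 0.148) or labelled-knockout replicate 2 (0.45, adjusted p 0.0558). The difference between the alleles was -0.11 (adjusted p 0.759 in edgeR). The list's median was 0.11 in R554Q and -0.12 in D29H.

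Of the hyaluronan receptors and binding proteins, 12 were tested in R554Q, with 1 higher and 1 lower in edgeR, and 13 in D29H, with 1 lower. Cd44, the main cell-surface hyaluronan receptor, had 419, 399 and 545 CPM in R554Q against 572, 660 and 615 CPM in wild type, with no overlap. In R554Q the log2 difference was -0.43 (SE 0.11, edgeR adjusted p 0.0237). The Cd44 call was lost without R554Q replicate 1 (-0.38), R554Q replicate 2 (-0.35), wild-type replicate 2 (-0.38) or wild-type replicate 3 (-0.43), with adjusted p of 0.0819 to 0.14. In D29H it was at -0.40 (SE 0.12, adjusted p 0.051 in edgeR), with 602 ± 78.8 CPM in the labelled knockout and 456 ± 27.97 CPM in D29H (SD, n = 3 each). DESeq2 called Cd44 lower there as well (-0.41, adjusted p 0.0111). Macrophages also express Cd44, and the lower macrophage-marker sum of R554Q given above stands beside its value too, its part not tested.

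Ptx3, a secreted pentraxin that cross-links hyaluronan matrix, rose in R554Q from 32.9 ± 1.25 to 43.8 ± 1.90 CPM (SD, n = 3 each; log2 fold change 0.42, SE 0.08, adjusted p 0.00725 in edgeR), and passed in all 13 alternatives. In D29H it was at 0.013 (adjusted p 0.957). The Ptx3 level was 71.7 ± 9.70 CPM in the labelled knockout and 72.3 ± 5.46 in D29H (SD, n = 3 each), and the labelled knockout was above wild type by 1.118 on the log2 scale (SE 0.10, adjusted p 1.9e-08 in edgeR). Hmmr, a hyaluronan-binding protein that is also a mitotic spindle component, fell in D29H (-0.35, SE 0.10, adjusted p 0.0486) and was at -0.22 (adjusted p 0.243) in R554Q. The Hmmr call in edgeR was lost without D29H replicate 2 (-0.31), D29H replicate 3 (-0.30), labelled-knockout replicate 1 (-0.37), replicate 2 (-0.40) or replicate 3 (-0.28), under upper-quartile scaling, with GC and length offsets, in the fit of all 12 libraries and with the replicate number as a block. The list's median was -0.20 in R554Q and -0.096 in D29H.

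Hexose phosphate and UDP-sugar supply, which includes the route to UDP-N-acetylglucosamine, had 21 genes tested, with 1 higher and 1 lower in R554Q. Gnpnat1, which acetylates glucosamine 6-phosphate on that route, fell from 52.6 ± 4.71 to 39.0 ± 2.86 CPM (SD, n = 3 each; log2 fold change -0.43, SE 0.09, adjusted p 0.0112 in edgeR). Its call was lost with GC and length offsets (-0.28, adjusted p 0.0861), without R554Q replicate 1 (-0.46, adjusted p 0.0517) and without wild-type replicate 2 (-0.35, adjusted p 0.0826). In D29H Gnpnat1 was at 0.056 (adjusted p 0.793), and the difference between the alleles of 0.49 had an adjusted p of 0.25 in edgeR.

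Amdhd2, which removes the acetyl group from N-acetylglucosamine 6-phosphate, rose in R554Q by 0.33 (SE 0.09, adjusted p 0.0421 in edgeR). It lost the call without R554Q replicate 1 (0.31), wild-type replicate 1 (0.35), wild-type replicate 2 (0.24) or wild-type replicate 3 (0.39), and with GC and length offsets (0.23), the block and the fit of all 12 libraries. In D29H, 0 of the 21 supply genes were called by edgeR or DESeq2, and 1 had an unadjusted p under 0.05 in edgeR. The most abundant, Gpi1 (glucose 6-phosphate isomerase), was at 273 ± 10.6 CPM in D29H and 281 ± 8.98 in the labelled knockout (SD, n = 3 each). The list's median was 0.057 in R554Q and -0.063 in D29H.

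Among 8 genes of glycogen synthesis and other uses of UDP-hexoses, 1 rose in R554Q. Gbe1, the glycogen branching enzyme, had 6.77 ± 0.409 CPM in wild type and 18.0 ± 2.59 in R554Q (SD, n = 3 each). The log2 difference of 1.42 (SE 0.13, edgeR adjusted p 1.3e-06) passed in all 13 alternatives. In D29H Gbe1 was at 0.51 (SE 0.19, adjusted p 0.11). There 0 of the 8 were called by edgeR or DESeq2, with 2 at an unadjusted p under 0.05, and the most abundant, the galactosyltransferase gene B4galt1, was at -0.16 (adjusted p 0.34 in edgeR). The medians were -0.072 in R554Q and -0.16 in D29H.

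The list of UDP-sugar transporters, carriers into the endoplasmic reticulum and Golgi, held 6 Slc35 genes. What each of them carries was not examined here. In either allele 0 were called by edgeR or DESeq2, with 0 and 1 at an unadjusted p under 0.05 in R554Q and D29H. The most abundant, Slc35b1, was at -0.13 (adjusted p 0.338 in edgeR) in R554Q and 0.071 (adjusted p 0.703) in D29H. Slc35d1, a UDP-glucuronate carrier singled out after its values were seen, was at 0.12 (adjusted p 0.496) and 0.27 (adjusted p 0.159).

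Proteoglycan linker and chain enzymes, which use UDP-xylose and UDP-glucuronate, had 31 genes tested, with 2 higher in R554Q and 1 in D29H in edgeR. DESeq2 called 3 in R554Q, the additional one being Csgalnact2, a chondroitin-chain enzyme, lower at -0.31 (adjusted p 0.0458, against 0.056 in edgeR). Chpf2, a chondroitin polymerising factor, rose in R554Q from 82.2 ± 6.36 to 122 ± 9.23 CPM (SD, n = 3 each; log2 fold change 0.57, SE 0.09, adjusted p 0.00052 in edgeR) and in D29H by 0.36 (SE 0.10, adjusted p 0.0376). In R554Q it ran from 0.33 to 0.64 over the 13 alternatives, past the threshold in each. The D29H call was lost with the block (0.36, adjusted p 0.0547), with GC and length offsets (0.27), and without D29H replicate 2 (0.36), D29H replicate 3 (0.32) or labelled-knockout replicate 2 (0.30). Chpf2 overlaps Smarcd3 on the opposite strand, so its reads are uncertain. The related Chpf rose in R554Q by 0.33 (SE 0.09, adjusted p 0.0409), and was at 0.092 (adjusted p 0.558) with GC and length offsets. It also lost the call without R554Q replicate 1 (0.35), R554Q replicate 2 (0.33), wild-type replicate 1 (0.30) or wild-type replicate 2 (0.25), with the block and in the fit of all 12 libraries. The medians were 0.062 in R554Q and -0.11 in D29H.

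The glucuronidation list held enzymes that transfer glucuronate from UDP-glucuronate to small molecules, and Gusb, which transfers none. Of 15 genes listed 7 were in the tables and 2 passed the filter. These were Ugt1a7c, the only transferase that passed, and Gusb, with group means of 45.9 to 66.8 CPM. Gusb was also on the hyaluronan breakdown list. Ugt1a7c rose in R554Q from 0.424 ± 0.148 to 1.53 ± 0.348 CPM (SD, n = 3 each; log2 fold change 1.85, SE 0.36, adjusted p 0.00589 in edgeR). Ugt1a7c was at 1.53 ± 0.253 CPM in the labelled knockout, where it was higher than in wild type (log2 difference 1.87, SE 0.34, edgeR adjusted p 0.000327), and at 2.61 ± 0.393 CPM in D29H (0.75 over the labelled knockout, SE 0.25, adjusted p 0.0794). It shares exons with the other Ugt1a genes and overlaps Dnajb3 on the opposite strand, which had 763 reads against its 391, so its reads are uncertain. The other, Gusb, which is the lysosomal enzyme that cleaves glucuronate off, was at -0.14 (adjusted p 0.386) in D29H, where 0 of the 2 were called by edgeR or DESeq2 and 1 had an unadjusted p under 0.05. The difference between the alleles was called for 0 of 89 genes of the 7 lists by edgeR and 1 by DESeq2, with 18 (20.2%) at an unadjusted p under 0.05 in edgeR. Over all 14794 genes 11.3% had such a p and DESeq2 called 0.439%, and the share in the lists was not tested against that over all genes.

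**Figure D4:**
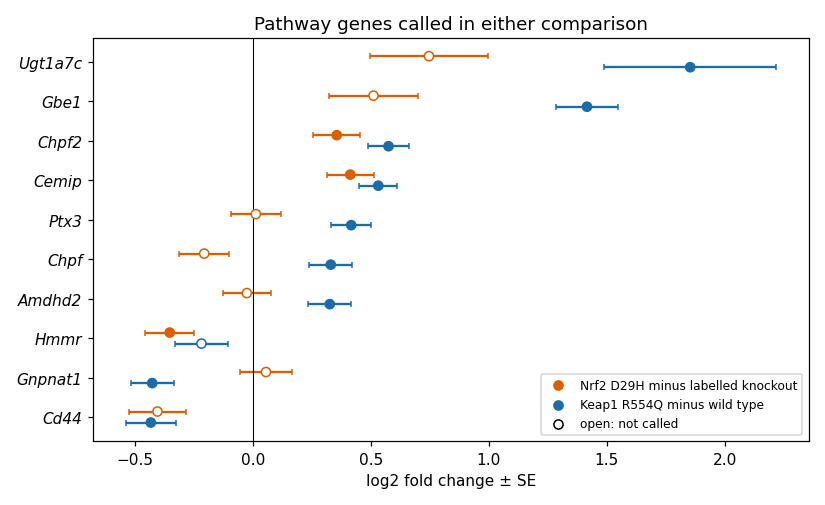
Log2 fold change with its SE of the 10 listed genes called in R554Q against wild type (blue) or D29H against labelled knockout (orange), with filled points called and open points not called. Cemip and Chpf2 are filled and above 0 in both, and Cd44 is below 0 in both but filled only in R554Q.

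The genes whose profiles over the 12 libraries were closest to Ugdh and to Has2 were found among 9082 protein-coding genes, by the root mean square difference of centred log2 CPM. For Ugdh, whose own profile had an SD of 0.193, they were Plxdc2 (0.0575), Stt3b (0.060), Golm1 (0.064), Sf3a3 (0.0677) and Masp1 (0.0679). For Has2 (SD 0.290) they were Snx7 (0.103), Aldh1l2 (0.109), Crip1 (0.120), Des (0.121) and Idi1 (0.122). Since the genes were chosen for likeness, their group means are no separate observation.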

How the data were processed

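Raw counts of reads for each gene were deposited by the authors in 2 tables, per the file headers, beside log2 fold changes, adjusted p-values and gene lengths. The authors' log2 values and adjusted p-values, deposited in the same tables, were only quoted, and their group means and FPKM were not used. For the 6 genes the authors' log2 values were smaller in size than those fitted here, as for Has3 in D29H (0.33 against 1.00). They may therefore not be the same measure. The submitters' processing notes name STAR, DESeq2 and mm10, with no version; the counting tool, annotation and use of strand are not given in the sources used here. Counts ran from 14963004 to 23818477 per library, and replicate pairs differed by more than counting noise (chi-square per degree of freedom 4.66 to 23.2).

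Counts were fitted in R 4.3.3 with edgeR 4.0.16 (filterByExpr with a minimum count of 10, TMM, quasi-likelihood test, Benjamini-Hochberg adjusted p under 0.05 over all genes tested) on the 6 libraries of each table. The difference between alleles and the comparison of empty-virus groups used 1 fit of all 12. The SE is the log2 fold change over the square root of the F statistic. Fits were tested on simulated counts. Alternatives were DESeq2 1.42.0, upper-quartile and RLE scaling, no filter, a replicate block, 1 fit of all 12 libraries, each library left out and, added after seeing the data, GC and length offsets (lowess span 0.3, GC known for 99.5% of genes). The genes, lists and tests were chosen with earlier results of these data known. Named from each list were up to 3 called genes per direction by size of change, or the most abundant where none was called, plus the 5 closest profiles (mean of at least 10 CPM, prior count 0.1).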

Additional observations from a re-analysis of the deposited data

Results flagged for a closer look

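The D29H and R554Q effects differed for 2 reference NRF2 targets in the fit of all 12 libraries. Subtracting the R554Q effect gave -0.689 on the log2 scale for Srxn1, which encodes sulfiredoxin (edgeR adjusted p 0.0402), and -1.69 for Slc7a11, the cystine transporter (adjusted p 0.0436). Both calls were lost with the replicate block (-0.69 and -1.65) and without D29H replicate 2 (-0.67 and -1.74), D29H replicate 3 (-0.70 and -1.68), R554Q replicate 1 (-0.67 and -1.75), R554Q replicate 3 (-0.71 and -1.55), wild-type replicate 1 (-0.72 and -1.55), wild-type replicate 2 (-0.69 and -1.81) or wild-type replicate 3 (-0.70 and -1.77). The Srxn1 call was also lost without labelled-knockout replicate 2 (-0.70), and that of Slc7a11 with upper-quartile scaling (-1.67). Slc7a11 was at 5.06, 4.82 and 10.19 CPM in the labelled-knockout libraries, and without replicate 3 of that group its difference was -1.31 (adjusted p 0.0478 in edgeR). Hk1, hexokinase of the hexose phosphate supply, had values of opposite sign, neither past the threshold in edgeR. Its log2 fold change was -0.148 in D29H (adjusted p 0.357), with every D29H library below every labelled-knockout library, and 0.194 in R554Q (adjusted p 0.137), with every R554Q library above every wild-type library. In edgeR's test of that difference Hk1 was at -0.33 with an adjusted p of 0.312, which did not pass. Groups of 3 libraries are too small for the test of single outlying libraries, which was not run.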

How the results depend on the processing

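Of 372 alternative values of the members' log2 fold changes 21 changed sign. Of the 258 that carry a test 236 kept direction and side of the threshold and 2 gained a call (Ugp2 and Uxs1, given above). The other values carry no test, and 113 of them kept their sign, Ugp2 in D29H being the exception. Ugdh in R554Q became 0.018 with GC and length offsets; the cause was not tested. Has3 in the labelled knockout against wild type became -0.0087 in DESeq2 and -0.034 with the replicate block. Leaving out 1 library changed signs of Has1 in R554Q (-0.20 to 0.21), Has1 (-0.11 to 0.10) and Has3 (-0.44 to 0.34) in labelled knockout against wild type, and the difference between alleles of Ugp2 (-0.16 to 0.069) and Uxs1 (-0.065 to 0.092). Of 48 group means 47 stayed within 1 SD, and Uxs1 in the labelled knockout became 77.8 CPM by library total alone. The 872 calls in R554Q became 1502 with no filter, 484 with the replicate block and 546 with the offsets, and 236 (without R554Q replicate 1 or wild-type replicate 2) to 2888 (without R554Q replicate 3). The 682 in D29H became 1195 with no filter and 80 (without D29H replicate 3) to 2210 (without D29H replicate 1), and DESeq2 called 442 higher and 279 lower there against 498 and 184. The 4 genes whose effects differed between alleles became 1 with upper-quartile scaling, 32 with no filter, 65 in DESeq2, 0 in edgeR with the replicate block (1291 at an unadjusted p under 0.05), and 0 to 26 with 1 library left out. Deviations of same-numbered libraries had correlations of -0.11, -0.11 and -0.071 in the Nrf2 table and 0.056, -0.29 and -0.082 in the Keap1 table. Differently numbered libraries reached 0.33 (R554Q replicate 3 with wild-type replicate 2) and -0.28 (R554Q replicate 3 with wild-type replicate 1). Deviations were taken from the mean of each group's 3 libraries, which ties these correlations together. They cannot decide whether same-numbered libraries were paired. With the block Has2 in R554Q was -0.60. Has1 and Has3 had 4 to 50 reads per library. In R554Q their 95% intervals were -0.59 to 0.74 and -0.17 to 1.13 on the log2 scale; how far depth sets these widths was not measured.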
